A study of Mus musculus with 5 samples.

Results

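The genes described here are those of the cytosolic ribosomal proteins, the protein subunits of the ribosomes that translate messenger RNA in the cytoplasm. They were chosen by name alone: every gene row named Rpl or Rps with a number, plus Rplp0, Rplp1, Rplp2 and Rpsa, without rows named as pseudogenes. The rule found 84 of 24411 gene rows, 33 of the small subunit and 51 of the large subunit. Single cells were taken from the blood in the heart of wild type C57BL/6 mouse embryos at 2 ages, embryonic day 9.5 (E9.5, 2 replicate batches) and embryonic day 10 (E10, 3 replicate batches). The sort kept cells with none of CD45, CD43, CD41 or TER119 on their surface, which are proteins of blood cells, platelet precursors and red cells, and the submitters describe the cells as circulating cells outside the blood lineage. Nothing in the labels says whether a batch came from 1 litter or from pooled embryos, so p-values speak for these batches alone. Those for age measure the spread between batches. Those between cell classes, described below, measure how far class differences varied across batches.

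A ribosome holds its proteins in fixed proportion, and cells make them in step. In vertebrates the messages of these proteins begin with a C followed by a run of pyrimidines, the 5′ terminal oligopyrimidine (TOP) tract, through which growth signals control their translation as a group. Red cell precursors make large amounts of globin protein, and loss of a copy of one of several of these genes, among them RPS19, RPS24, RPS26, RPL5, RPL11 and RPL35A, causes Diamond-Blackfan anaemia, a failure of red cell production. Several members have a paralogue, a second gene for a closely related protein, and some of these paralogues are known from germ cells or other restricted settings.

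RefSeq start sites on GRCm38.p6 were matched for 63 of the 84 members. Within 30 bases on each side of the start, a C followed by pyrimidines to a run of at least 8 bases, on the transcript strand, was present in 34 of these 63 genes (54.0%), against 20.6% of the 27025 gene symbols with a start. A C and 4 pyrimidines exactly at the annotated start were found in 20.6% of the members and 3.01% of all symbols. A match is a description of these letters, and the annotated start need not be the one used in these cells. The sequences below are the 12 bases before and the 14 bases from the annotated start of genes on which the later results turn: Rpl14 and Rpsa, which had the largest differences between blood and Prrx1 cells, Rps19, the gene most often mutated in Diamond-Blackfan anaemia, and 2 members with their paralogues. Each is 5′ to 3′ on the strand of the gene. The longest pyrimidine run that starts with C within these 26 bases is in capitals, the first where runs are equal.
Rpl14, chr9:120571505-120571530, plus strand: cgggCCCTCTCTCTTCTCgctgagcg
Rpsa, chr9:120127754-120127779, plus strand: ggttatttaaggacgtcatttCCggc
Rps19, chr7:24884901-24884926, plus strand: ggagcggggtgtggagggCTCTCCCa
Rpl22, chr4:152324424-152324449, plus strand: tgCTTCTggaatgttccagctcccac
Rpl22l1, chr3:28805496-28805521, plus strand: cggcgcaagcccgttCTCTTCCCacg
Rpl39, chrX:37085209-37085234, minus strand: aagctccgcctctagcgaCTTCTTCT
Rpl39l, chr16:10170216-10170241, plus strand: ccaggCCTTTCCggatttccggtggt
The run of Rpl14 had 14 bases and spanned the start, while Rpsa had no run starting with C of over 2 bases. The runs of Rps19, Rpl22l1 and Rpl39, of 7, 8 and 8 bases, began after the start, and that of Rpl39 reached the last base shown. The run of Rpl39l, of 7 bases, lay wholly before it. Rpl22 had a run of 5 bases before the start, in capitals, and another of 5 bases after it.

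Cells were kept with at least 1000 genes and 30000 unique molecular identifiers (UMIs, the random tags that mark each captured messenger molecule once), which left 294 of 480 columns. Batches held 26 and 46 cells at E9.5 and 87, 72 and 63 at E10, with median depths of 144729 to 485692 UMIs per cell. Classes were set by the level of 1 or 2 marker genes in UMIs scaled to 1000000 per cell or sum (CPM). A blood cell had Alas2, the first enzyme of haem synthesis in red cells, at 400 CPM or more. A neural cell had the neuronal tubulin Tubb3 at 150 or the neural crest factor Sox10 at 50, a Prrx1 cell had that regulator of limb and head mesenchyme at 100, and a Dppa5a cell had that gene of pluripotent and germ cells at 500. Cells that met exactly 1 rule were used: 45 blood, 42 neural, 112 Prrx1 and 7 Dppa5a cells. A further 67 cells met no rule and 21 met more than 1. Near the limits, 11 cells lay from 20% below to 25% above the Prrx1 limit, 6 near that for Tubb3, 3 near Dppa5a, 2 near Sox10 and 1 near Alas2.

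Markers other than those used in the rules were read in each class. Blood cells had medians of 348 CPM of Klf1 and 127 CPM of Gata1 and 0 UMIs of Ptprc, which encodes CD45. Neural cells had 1075 CPM of Nefm but no UMI of Erbb3, and Prrx1 cells had 208 CPM of Twist1. The Dppa5a cells had 861 CPM of Zfp42 and 289 CPM of Nanog, with Pou5f1 at 16.7 CPM. They also held mesenchyme transcripts: 6 of 11 mesenchyme markers had a median of at least 20 CPM in them, led by Col3a1 at 173 CPM, as did 6 of 10 pluripotency and germ cell markers and 2 of 13 neural markers, so the name stands for the rule alone. Globin transcripts were present in every class: their median share was 13.1% to 21.9% of UMIs in the blood cells of the 3 batches with sums, and 0.0379% to 5.65% in Prrx1 cells. E10 replicate 1 stood apart, with the highest depth, 32929 spike-in UMIs per cell against 4057 to 9723 in the other batches, no cell of the blood class alone and every Dppa5a cell.

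The 84 genes together gave 16.6% ± 2.18 of the UMIs of a cell (mean of the 5 batch medians, SD, n = 5). In blood cells the share was 21.3% ± 3.22 (n = 3 batches), in neural cells 16.3% ± 2.92 (n = 5) and in Prrx1 cells 15.8% ± 2.004 (n = 5). The median was 24.9% in the blood cells of E9.5 replicate 2, 18.9% in those of E10 replicate 2 and 19.9% in those of E10 replicate 3. In the Prrx1 cells of the same 3 batches it was 18.5%, 16.2% and 14.7%. Blood cells were thus higher by 6.44, 2.68 and 5.24 percentage points within the 3 batches that held both, and higher than neural cells by 6.02, 2.72 and 6.43 points. Neural minus Prrx1 had no common sign, at 3.19, 0.42, 0.20, -0.04 and -1.19 points. With globin UMIs taken out of the total, the blood share was 25.8%. Per spike-in UMI the blood cells held 10.5 to 12.3 ribosomal protein UMIs (batch medians) in the batches with sums. The Prrx1 cells of those batches held 3.18 to 6.30, and the cells that met no rule 5.48 to 10.1. All UMIs per spike-in UMI were also higher in blood cells, at 50.97 to 59.98 against 23.44 to 39.74 in Prrx1 cells. The gap per spike-in UMI is thus not specific to the members. The share is a description and was not tested as a sum.

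**Figure D1:**
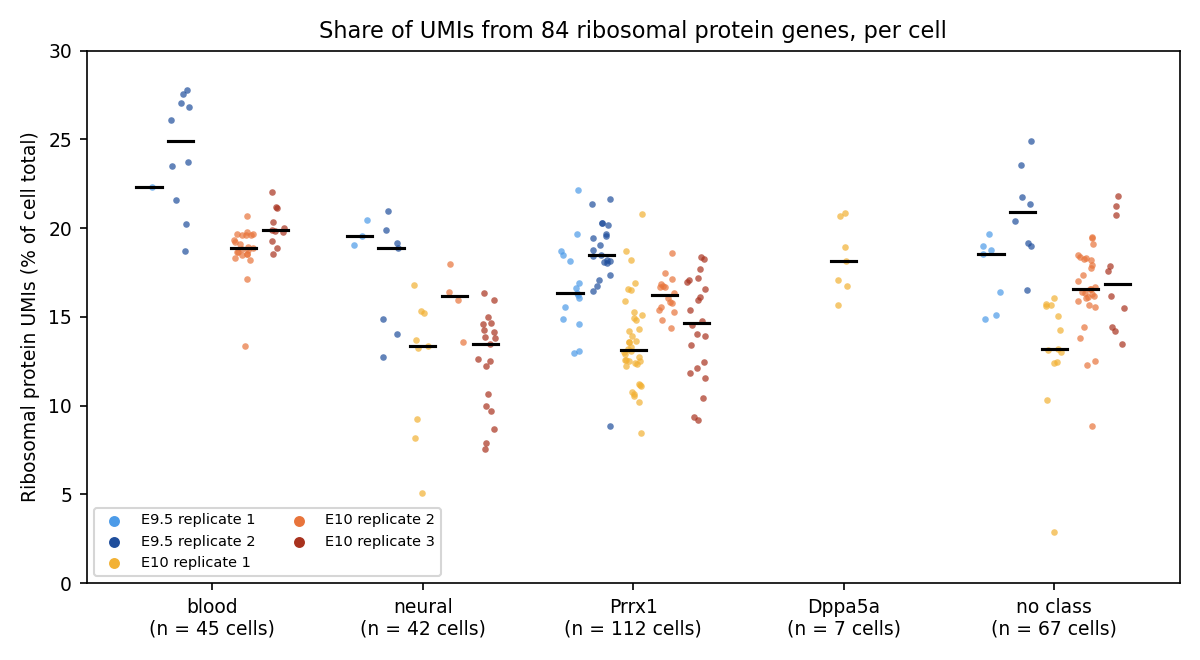
Share of UMIs from the 84 genes (% of the cell total, y axis) in each cell, by class (x axis) and batch (colour); the bar is the median of the batch. Blood cells of E9.5 replicate 2 have the highest median, 24.9%, and the Prrx1 cells of E10 replicate 1 the lowest of the named classes, 13.1%.

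Depth moved with the share in blood cells and in cells outside the classes. Across cells of 1 class and batch, which share a library, the Pearson correlation of the share with log2 UMIs was 0.85 (10 cells), 0.57 (23 cells) and 0.69 (11 cells) in blood, and between -0.12 and 0.50 in the 5 batches of Prrx1 cells. It was 0.83, 0.75 and 0.78 in the cells of the 3 E10 batches that met no rule, 0.62 in the cells of E10 replicate 1 that met more than 1 rule and 0.01 in the neural cells of E10 replicate 3. Sets of fewer than 10 cells were left out. Its part in the class differences was not tested. After each cell was thinned to 30000 UMIs the blood and Prrx1 shares were 21.3% and 15.8%. Random thinning keeps the expected share of a cell, so these values do not bear on the link with depth. The balance of the subunits was alike in all classes: the median ratio of small to large subunit UMIs lay between 0.73 and 0.79 in every class and batch with at least 1 cell.

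Single members covered a wide range of levels. A UMI count tags each molecule once at its poly(A) end, so it does not scale with transcript length. In all kept cells 83 of the 84 genes had at least 1 UMI, 73 reached 1000 CPM and 77 reached 100 CPM. The highest was Rpl41, which encodes the shortest of the ribosomal proteins, at 6669 ± 900 CPM (SD, n = 5). Rps29 followed at 4398 ± 529 and the stalk protein gene Rplp1, whose product helps bind elongation factors, at 4268 ± 466 CPM. Rplp0, the base of the stalk, stood at 3886 ± 493 CPM, within 1 SD of Rplp1. The 10 highest genes held 22.8% of all member UMIs.

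**Figure D2:**
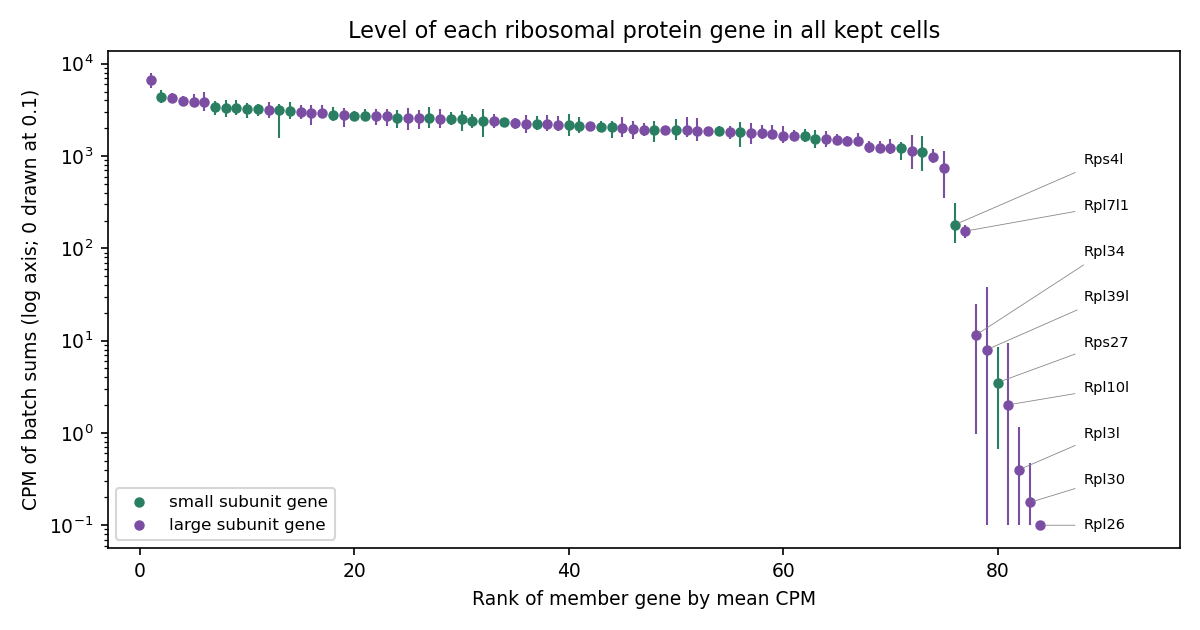
Mean CPM of each member (y axis, log scale) over the 5 batch sums of all kept cells, by rank (x axis); lines run from the lowest to the highest batch and a 0 is drawn at 0.1. All but 11 genes lie at 1000 CPM or more, and 9 labelled genes lie below 200 CPM.

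At the lower end, 6 members had less than 10 CPM: Rpl39l at 7.98, Rps27 at 3.51, Rpl10l at 2.02, Rpl3l at 0.40, Rpl30 at 0.18 and Rpl26 with no UMI, so it is only listed at 0. Rpl34 stood at 11.5 CPM. Rpl39l, Rpl10l and Rpl3l are paralogues, but Rps27, Rpl30, Rpl26 and Rpl34 encode standard subunits that every ribosome holds. Counting of near-identical copies bears on such rows. Of the last 300 bases of Rps27, 100% of the 100-base words also occur in transcripts of another gene, and 76.1% of those of Rpl30, 42.8% of Rpl34 and 30.3% of Rpl26. The share was also 100% for Rpl10, Rpl36a and Rpl9, which stood at 1790, 1653 and 1637 CPM. The part of shared sequence in the low rows was not tested, and these 4 levels are uncertain. The 9 rows named as copies of members held 0.422% of the UMIs of members and copies together, of which Rpl37rt gave 56078 UMIs and Rpl14-ps1 12013.

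The order of the genes was similar in all classes: over the 84 genes, which share library and depth within a class, Spearman's rho was 0.985 between neural and Prrx1 cells, 0.971 between blood and Prrx1 cells and 0.892 between Dppa5a and Prrx1 cells. Across batches Rpl15, a large subunit protein, was among the most variable genes, with a coefficient of variation of 40.9%: it stood at 956, 1121, 352, 581 and 705 CPM in the 5 batches, in the order E9.5 replicates 1 and 2 and E10 replicates 1 to 3. E10 replicate 1 was lowest. Rps14, a small subunit protein, stood at 3277, 3654, 1586, 3564 and 3684 CPM in the same order, so that E10 replicate 1 alone was low.

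Blood cells were then compared with Prrx1 cells, to ask which members set red cell precursors apart from mesenchymal cells in the same blood. Counts were summed per batch and class and fitted with edgeR's quasi-likelihood test, with batch as a block, trimmed mean (TMM) scaling and Benjamini-Hochberg adjustment over all 12017 genes tested. 79 members passed the filter on low counts. Of these, 75 were higher in blood cells at an adjusted p of 0.05 and none was lower. Over all genes 8.98% were higher and 10.3% lower, 19.3% in either direction. The median log2 fold change was 1.19 over the members and -0.23 over all genes.

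Scaling bears on the size of this difference. With library totals in place of TMM scaling, 39 of the 79 were higher and 1, Rps4l, was lower, with medians of 0.40 over the members and -0.99 over all genes. The scaling thus moved all genes by about the same amount, and the members lay 1.42 above the all-gene median under TMM and 1.39 under totals. Over all genes the calls changed from 1079 higher and 1236 lower to 372 higher and 2751 lower. In plain CPM, 66 of 78 members were higher in all 3 batches, against 13.6% of all genes, 2 were lower in all 3, against 55.9%, and 27 had their lowest blood sum above the highest Prrx1 sum, against 8.79%. The median ratio was 1.28 for the members and 0.609 for all genes. Blood cells held 13.1% to 21.9% globin UMIs, and the count of 75 was the same with globin genes removed before scaling. The part of free globin RNA in Prrx1 cells was not tested.

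Rpl14, a large subunit protein, differed most. It stood at 4575, 3590 and 3732 CPM in the blood sums, against 2551, 2268, 1916, 2342 and 1851 in the Prrx1 sums, so the groups did not overlap. Its log2 fold change was 1.68 (SE 0.19, adjusted p = 4.1e-06) with TMM scaling and 0.89 with totals. Rpsa, the small subunit protein also known as the laminin receptor precursor, stood at 4490, 4832 and 4814 CPM in blood and between 2456 and 3224 in Prrx1 cells, and again the groups did not overlap. It differed by 1.63 (SE 0.19), or 0.85 with totals. Rplp1 stood at 6034, 5305 and 5289 CPM in blood sums and 3260 to 4138 in Prrx1 sums, a log2 difference of 1.497 with TMM scaling and 0.71 with totals. The next largest were Rpl28 at 1.49 and Rplp0 at 1.47, which passed under both scalings, and the third stalk gene, Rplp2, differed by 1.27.

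**Figure D3:**
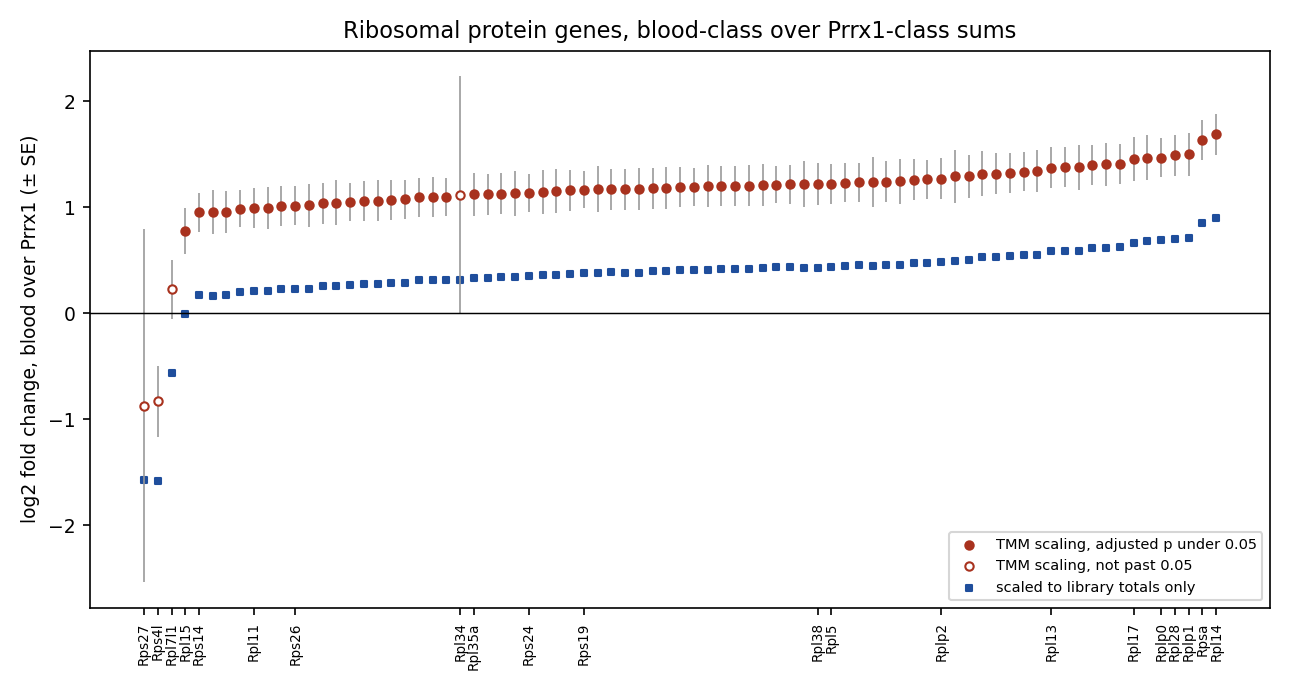
Log2 fold change of each tested member, blood over Prrx1 (y axis), ordered by size (x axis, with names for genes described in the text): red with TMM scaling, ± SE and filled where the adjusted p is under 0.05, blue with library totals only. The red points lie above 0 for 77 of 79 genes, and the blue ones lie lower for every gene, with Rpl14 and Rpsa highest in both.

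The genes mutated in Diamond-Blackfan anaemia that are named above differed by about the median of the members. With TMM scaling these 6 passed: Rps19 at 1.16 (SE 0.17), Rps24 at 1.13, Rps26 at 1.01, Rpl5 at 1.22, Rpl11 at 0.99 and Rpl35a at 1.12. With totals 3 of the 6 passed, Rps19 at 0.38, Rpl5 at 0.43 and Rps24 at 0.35, while Rpl11 at 0.21, Rps26 at 0.23 and Rpl35a at 0.33 did not. Rps19 stood at 4992, 3641 and 3625 CPM in blood and between 2584 and 3824 in Prrx1 cells. The 2 E10 blood sums lay within the range of the Prrx1 sums, but each lay above the Prrx1 sum of its own batch. Rpl38, whose loss in mice alters the pattern of the vertebrae, differed by 1.22 with TMM scaling.

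The 4 members not called were Rps27, Rpl34, Rps4l and Rpl7l1. Rps27 and Rpl34 are the low rows noted above. Rps4l, annotated as a transcribed pseudogene at chr6:148354656-148355596 (GRCm38) with a sequence close to X-linked Rps4x, stood at 57.4, 92.3 and 34.2 CPM in blood and at 207, 202, 168, 215 and 142 CPM in Prrx1 cells. The groups did not overlap, and Rps4l was the one member called lower with totals (-1.58, adjusted p = 0.0038 in the quasi-likelihood test); with TMM scaling it stood at -0.83 with an adjusted p of 0.089. Rpl7l1, a paralogue of Rpl7 that works in ribosome assembly, stood at 109, 123 and 110 CPM in blood and between 133 and 190 in Prrx1 cells. Its log2 difference was 0.22 with TMM scaling and -0.56 with totals, and neither passed.

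A second fit took the member total as the library size, and so asked which genes changed their share among ribosomal protein transcripts. It called 7 of the 79 members, 3 higher and 4 lower in blood cells, where 1.8% of all genes were higher and 32.2% lower. Rpl14 rose by 0.46 on the log2 scale (SE 0.10, adjusted p = 0.0033), Rpsa by 0.42 and Rplp1 by 0.28. Rps4l fell by 1.99 (SE 0.41, adjusted p = 0.0019), Rpl7l1 by 0.98, Rpl15 by 0.44 and Rps14 by 0.26. Without E9.5 replicate 2 the count was 2, Rps4l and Rpsa, and without E10 replicate 3 it was 3, Rps4l, Rpsa and Rpl14. Without batch as a block it was also 3, Rps4l, Rpl7l1 and Rpl14. Rps4l was called in each of these. Over all 12 alternative runs Rps4l kept its call in 12, Rpl14 and Rpsa in 11 and Rpl7l1 in 10. Rps14 kept it in 7, Rplp1 in 6 and Rpl15 in 3.

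Blood cells compared with neural cells gave a similar count, from the same blood sums. With TMM scaling 75 of 79 members were higher and none lower, against 11.5% and 11.9% of all genes. Totals alone called 45 higher and 1 lower, where 438 of all 12017 genes were higher and 2874 lower. The largest differences were Rpl14 at 1.69, Rpl13 at 1.59, Rpl28 at 1.58, Rps27l at 1.57 and Rpl17 at 1.56, all past the threshold. In plain CPM 69 of 77 members were higher in all 3 batches (12.5% of all genes), and 47 had no overlap between the groups (8.36%). Rpl14 stood at 1707 to 2760 CPM in the 5 neural sums, below all 3 blood sums.

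Neural and Prrx1 cells are both outside the blood lineage, and no member differed between them past the threshold. The quasi-likelihood test called 0 of 79 members, while it called 5.75% of all genes, 3.02% higher and 2.73% lower. At an unadjusted p under 0.05 there was 1 member, Rpl7l1 at -0.55, against 17.7% of all genes. DESeq2 also called 0 members, where 727 of all 12017 genes were higher and 599 lower. The median log2 difference was -0.06 over members and -0.10 over all genes. In plain CPM no member was higher in all 5 batches (8.36% of all genes), 4 were lower in all 5 (10.1%) and for none did every neural sum lie above every Prrx1 sum (2.6%). Rpsa stood at 2375 to 4032 CPM in neural sums and 2456 to 3224 in Prrx1 sums, so neural sums lay both below and above the Prrx1 range.

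Other genes of protein synthesis were counted in the blood and Prrx1 comparison from lists of pathway genes, first with TMM scaling, where 8.98% of all genes were higher and 10.3% lower. The ribosome genes outside the name rule were higher in 4 of 4, among them Rpl36al at 1.61 and Gnb2l1, the scaffold protein RACK1, at 1.245. Of the translation factors whose messages carry TOP tracts, 10 of 15 were higher, led by the poly(A)-binding protein gene Pabpc1 at 1.69. Initiation factors were higher in 16 of 29, led by Eif2ak1 at 2.71, the haem-regulated kinase that slows translation in red cells when haem is low. Of the ribosome biogenesis genes 24 of 50 were higher, with Nhp2 at 1.96 and Nop10 at 1.73, both parts of the particles that modify ribosomal RNA. The list for the mitochondrial ribosome was chosen by name alone, as Mrpl or Mrps with a number. Of its genes 36 of 77 were higher, with Mrpl36 at 2.09 and Mrps36 at 2.08. No gene of these 5 lists was lower. The lists of RNA polymerase I and Myc genes gave 2 of 18 higher (Polr1d at 1.19) and 1 lower, Mycn at -2.50. The p53 targets gave 3 of 11 higher, led by Perp at 4.07. The medians of these lists were 1.20, 0.80, 0.74, 0.96, 0.91, 0.42 and 1.10 in the order given, and -0.23 over all genes. With library totals the same lists held 3, 1, 4, 3, 5, 0 and 0 higher genes and 0, 1, 4, 0, 1, 4 and 1 lower ones, with medians of 0.41, 0.02, -0.03, 0.16, 0.12, -0.36 and 0.33 against -0.99 over all genes, where 372 of all 12017 genes were higher and 2751 lower. The medians of the initiation factors and of the polymerase I and Myc genes thus changed sign. Of the genes named, Polr1d (0.39) and Perp (3.32) did not pass with totals, and the other 9 passed in the direction given. In the neural and Prrx1 comparison the same 7 lists held 0, 0, 0, 0, 1, 0 and 1 higher genes and 0, 0, 1, 1, 0, 0 and 1 lower ones, against 3.02% and 2.73% of all genes. The lower ones were Eif4ebp1, which holds back the cap-binding factor, at -1.39, the biogenesis gene Rrs1 at -1.35 and the p53 target Phlda3 at -3.08.

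Paralogues were read as a share of the UMIs of each pair, within a class, which removes the scaling of the libraries. Rps4l made 3.31% ± 2.05 of the Rps4x and Rps4l UMIs in blood cells (n = 3 batches), 8.41% ± 2.08 in neural cells (n = 5) and 11.2% ± 1.84 in Prrx1 cells (n = 5). Its 3 blood values were 2.38%, 5.67% and 1.88%. The 5 Prrx1 values lay between 9.31% and 13.6%, above every blood value. Rpl7l1 made 6.41% ± 1.41 of its pair in blood and 10.4% ± 1.43 in Prrx1 cells.

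Rpl36al, outside the name rule, had its highest share in blood. It made 42.4% ± 5.53 of its pair with Rpl36a in blood, 31.4% ± 4.39 in Prrx1 and 28.0% ± 7.78 in neural cells. Of the last 300 bases of Rpl36a, 100% of the 100-base words also occur in other genes. The part of this shared sequence in the pair share was not tested. Rpl22l1, which is known to replace Rpl22 in some cells, made 50.2% ± 6.35 in blood, 43.8% ± 8.24 in neural and 45.9% ± 4.45 in Prrx1 cells, differences within the spread between batches. Rps27l, the p53-induced partner of Rps27, made 99.7% of its pair in all kept cells because Rps27 is one of the low rows, and this ratio does not give the balance of the 2 genes.

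**Figure D4:**
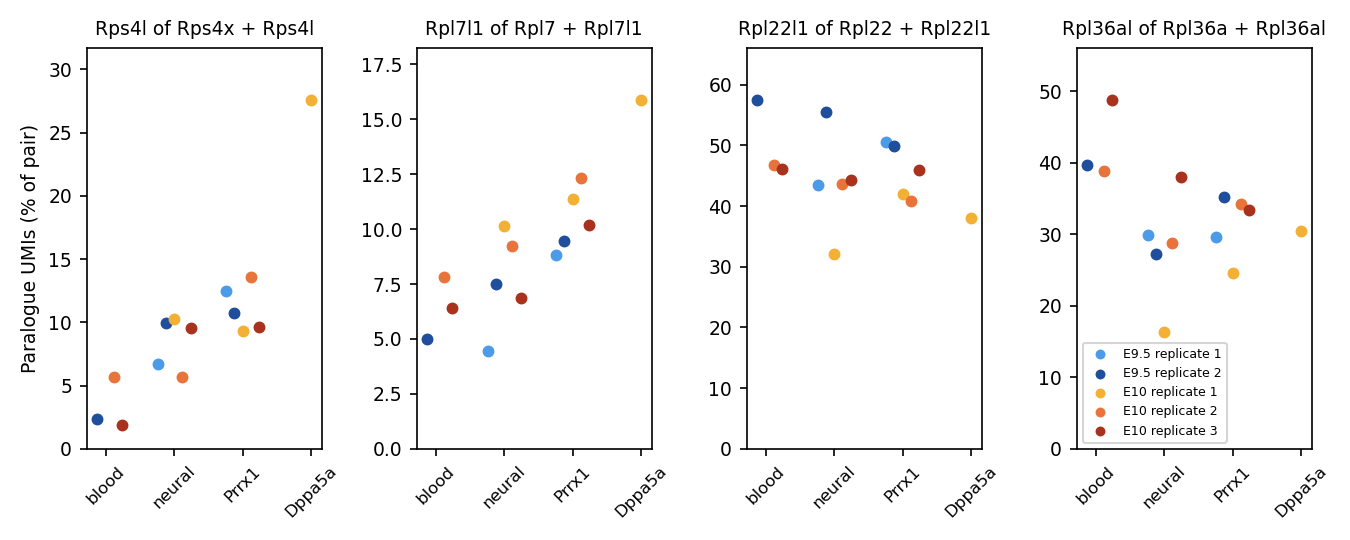
Share of the paralogue in the UMIs of its pair (%, y axis), 1 point per class (x axis) and batch (colour), for 4 pairs. Rps4l lies at 1.88% to 5.67% in blood sums, at 9.31% to 13.6% in Prrx1 sums and at 27.6% in the single Dppa5a sum.

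The 7 Dppa5a cells came from E10 replicate 1 alone and were set beside the 38 Prrx1 cells of that batch, with 1 sum each and no replicate check. The members gave a median of 18.2% of the UMIs in them, against 13.1% in the Prrx1 cells. In plain CPM 51 of 78 members were at least 25% higher (29.7% of all genes) and 3 were at least 20% lower (46.4%). The median ratio was 1.38 for the members and 0.852 for all genes.

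Several paralogues differed by more than this median. Rpl39l, known from male germ cells, stood at 176 CPM (95% exact Poisson interval 165 to 187, 988 UMIs) in the Dppa5a cells and at 0.85 CPM (0.50 to 1.36, 17 UMIs) in the Prrx1 cells, a ratio of 206. The intervals cover counting error only. Rps4l stood at 675 against 168 CPM, 4.02-fold higher, Rpl7l1 at 338 against 133, 2.53-fold, and Rps27l at 1599 against 636, 2.52-fold. For Rps27l the Prrx1 sums of the other batches stood higher, at 1106 to 1274 CPM, and the blood sums at 1214 to 1840 CPM. Rpl10l, a retrocopy of the X-linked Rpl10 expressed in the testis, had 106 UMIs in the Dppa5a cells and 1 in the Prrx1 cells. Rpl22l1, at 851 against 690 CPM and a ratio of 1.23, lay below the median. Rpl3l, the form of skeletal muscle and heart, had 27 UMIs against 0. The 3 lower members were Rps3a1 at a ratio of 0.640, Rpl3 at 0.738 and Rps14 at 0.775.

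Cell by cell, all 7 Dppa5a cells held Rpl39l, at 2.97 to 457 CPM with a median of 140. Of the 18 cells that met the Dppa5a rule together with another rule, 17 held it, with a median of 75.1 CPM. It was found in 11 of the 62 other cells of the batch, with at most 23.0 CPM, and in 6 of 207 cells of the other batches, with at most 82.5 CPM. After thinning to 30000 UMIs it was found in 4 of 7, 12 of 18, 0 of 62 and 3 of 207 cells. The median depth was 833346 UMIs in the Dppa5a cells, 536668 in the cells of 2 rules, 457838 in the rest of the batch and 270445 in the other batches. Rpl10l had UMIs in 7 of 7, 12 of 18, 3 of 62 and 2 of 207 cells, and thinned in 2, 8, 0 and 1. What these cells are was not tested.

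**Figure D5:**
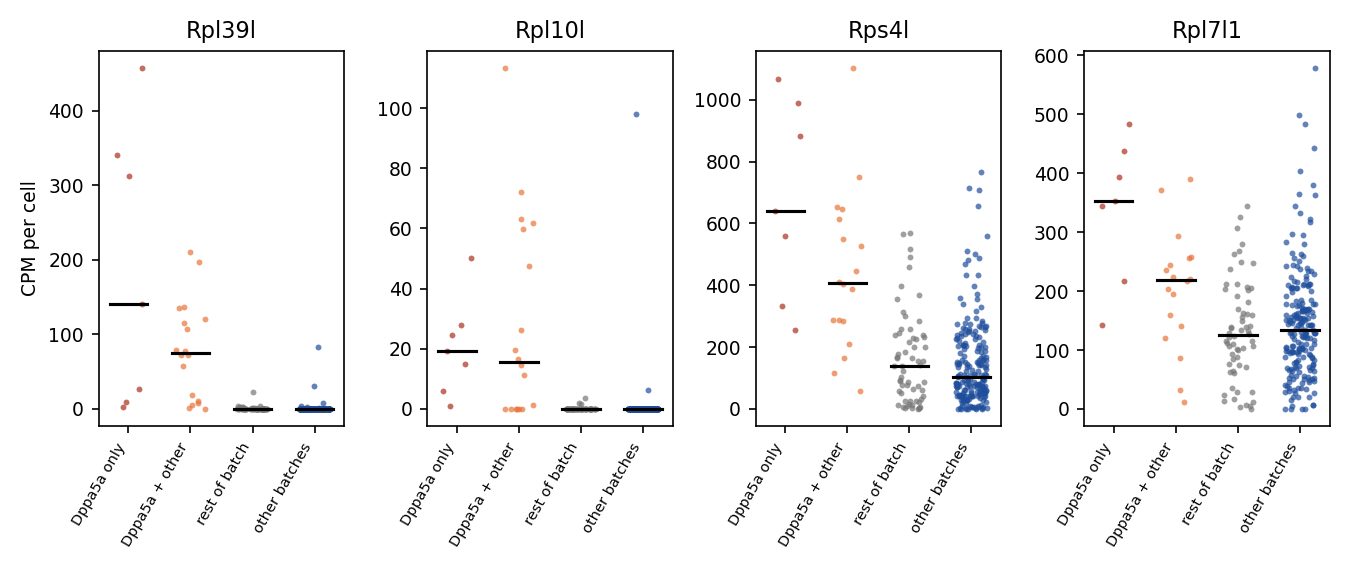
CPM per cell (y axis) of 4 paralogues in 4 sets of kept cells (x axis): Dppa5a cells, cells that met the Dppa5a rule and another, the rest of E10 replicate 1, and the other 4 batches; bars are medians. Rpl39l has medians of 140 and 75.1 CPM in the first 2 sets and 0 in the others, while Rpl7l1 and Rps4l are present in all sets and highest in the first.

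Finally E10 was compared with E9.5. The median share of the members was 18.5% ± 1.40 at E9.5 (n = 2 batches) and 15.4% ± 1.59 at E10 (n = 3) over all kept cells, 17.4% ± 1.501 and 14.7% ± 1.54 in Prrx1 cells, and 19.2% ± 0.46 and 14.3% ± 1.60 in neural cells. The batches of the 2 ages did not overlap in these 3 sets. In Prrx1 cells the gap was small, with 16.4% in the lowest E9.5 batch and 16.2% in the highest E10 batch. Each batch holds 1 age, so batch and age cannot be told apart beyond the replicates.

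No member passed the quasi-likelihood test for age: 0 of 82 in all kept cells, 0 of 79 in Prrx1 cells and 0 of 77 in neural cells. The background was also 0% of all genes in each fit. At an unadjusted p under 0.05 there were 8, 20 and 9 members, against 7.93%, 9.85% and 5.29% of all genes. DESeq2 called 0 members in each, where it called 50, 53 and 23 of all genes higher and 38, 43 and 3 lower. The median log2 difference, E10 minus E9.5, was -0.37, -0.37 and -0.47 over the members and 0.09, 0.04 and 0.11 over all genes. These counts and medians changed with single batches. Without E10 replicate 1 the unadjusted member counts were 2, 12 and 1, against 6.16%, 7.10% and 3.56% of all genes. Without E10 replicate 2 the member counts were 8, 42 and 50, against 7.82%, 10.6% and 8.20% of all genes. Without E10 replicate 3 the member counts were 3, 5 and 2, against 5.40%, 7.10% and 3.36% of all genes. Leaving out an E9.5 replicate left a single batch at that age, so counts of those fits are not given. The median stayed negative in each of these fits, from -0.60 (without E9.5 replicate 1) to -0.14 (without E9.5 replicate 2) in all kept cells, from -0.55 (without E10 replicate 2) to -0.27 (without E10 replicate 1) in Prrx1 cells and from -0.64 (without E10 replicate 2) to -0.37 in neural cells. With all batches 7, 5 and 3 members had a positive value. Rpl15 had -1.01 (SE 0.38), -0.98 (SE 0.34) and -1.01 (SE 0.42), the lowest of the members tested apart from Rps27 and Rpl34, though it did not pass and its lowest value was in E10 replicate 1. Rps12, a small subunit protein, had 0.26, 0.36 and 0.04. Rpl39l and Rpl10l were listed at 0 at E9.5 and at 0 in at least 1 E10 batch, so no fold is given.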

How the data were processed

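The authors' deposited table holds UMI counts per gene and cell. The submitters' processing notes list CASAVA 1.8, TopHat2 2.0.12, HTSeq and the build mm10; no strand setting is given in the sources used here. Per the labels' protocols, libraries were made by a modified STRT-seq, while the series text names Smart-Seq. Columns were matched to batches by the batch number in their names. The 95 spike-in rows stayed out of totals, and 111 columns held 0 UMIs. No doublet caller was run, because cells were picked singly. The 23 wells resembling the same well number of another batch were all below the depth limit, and no 2 of the 369 columns with UMIs held identical counts.

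Counts were summed per batch and class (at least 3 cells) and tested with edgeR 4.0.16 in R 4.3.3 (filterByExpr, TMM, quasi-likelihood, Benjamini-Hochberg at 0.05). Class fits took batch as a block, since the sums of a batch share a collection; age fits had no block. The standard error was the log2 fold change divided by the root of F. DESeq2 1.42.0 was the second tool. The procedure was tested on simulated data for blood against Prrx1 and the age fits, with changes put into genes drawn at random. It called 0% of the genes changed 2-fold in each. Of genes changed 4-fold it called 1.69% to 20.3%, and of those changed 16-fold 68.4% to 69.2%. These rates are for genes drawn from all that passed the filter and were not measured for the members. In blood against Prrx1, 75 of 79 members were called at a median log2 fold change of 1.19. Members, lists, classes and tests were chosen with earlier results of these data known. Named members were the 5 largest per direction in each comparison past the threshold, the 5 highest and 5 lowest by level, the paralogue pairs, the stalk genes, Rpsa, Rpl38 and Diamond-Blackfan anaemia genes, and up to 2 genes per direction of other lists. Rps12, Rpl34, Rps3a1 and the copies were named after their values were seen. A few items that this rule or the class markers would name are not reported here.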

Additional observations from a re-analysis of the deposited data

How the results depend on the processing

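Library totals in place of TMM scaling moved the count of members called from 75 to 40 in blood against Prrx1 and from 75 to 46 in blood against neural cells, and turned 2 genes of the first comparison, Rpl7l1 to -0.56 and Rpl15 to -0.010. The scaling shifts all genes together, as given above. Without the replicate block, that is with batch left out, 74 and 76 members were called in the 2 blood comparisons, but 3 in place of 7 in the fit relative to the member total. Leaving out 1 batch at a time gave 73 to 76 called members in blood against Prrx1, 73 to 77 in blood against neural, and 2 to 6 relative to the member total. The blood share was 25.8% with globin UMIs removed, and 19.4% to 22.4% without 1 batch. The counts of 0 in neural against Prrx1 and in the age comparisons were 0 under each alternative run, but with a minimum of 10 cells per sum the neural class against Prrx1 was a single sum, assumed to vary like the others. That minimum could not be fitted for age in neural cells. A count of 0 does not show that the groups were alike.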
